A study of Drosophila melanogaster with 6 samples.

Results

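The Drosophila annotation gives the prefix CR to genes without a described protein product, and 113 of these were expressed in sorted enteroendocrine cells (EEs, the hormone-secreting cells of the gut) of adult female midguts. They are the genes whose name is CR followed by digits alone and whose mean level over the 6 samples was at least 5 CPM, a count scaled to a library total of 1e6 counts on genes. The count table holds 2493 such CR genes among 17558 genes, and 2013 of the 2493 had at least 1 count. The level over both groups therefore chose the members, and it is given below as a description.

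In 3 *pros*-depleted samples, prosV1-Gal4ts drove UAS-GFP and UAS-pros-RNAi in EEs, and in 3 control samples it drove UAS-GFP alone. The homeodomain factor Pros marks EEs, and the comparison asks what its loss does to RNA in differentiated EEs. Flies of both groups carried the temperature-sensitive Gal80 repressor, were 5 to 7 days old when moved to 29 °C and stayed there for 7 days, so that every sample comes from heated, Gal4-expressing flies. Each sample held about 20000 GFP-positive cells without propidium iodide staining, sorted from pooled guts, and its polyadenylated RNA was amplified. The driver is written ProsV1-Gal5ts and ProsV1-Gal6ts in the labels of *pros*-depleted replicates 2 and 3, while the methods describe 1 driver.

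Not every member is a long non-coding RNA gene. RefSeq, which listed all 113, annotates 49 as long non-coding RNA (lncRNA), 12 as antisense RNA, 3 as hairpin RNA, 48 as pseudogenes and 1, CR43051, as protein coding. Among all 2493 CR genes the order is different, with 1777 lncRNA, 461 antisense and 196 pseudogene entries. The expressed set is therefore called CR genes here and split by these classes. By chromosome arm, 28 members lie on X, 13 on 2L, 24 on 2R, 25 on 3L, 18 on 3R and 5 on chromosome 4.

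Long non-coding RNAs are capped and often polyadenylated transcripts without a long reading frame, and most have no known function. Antisense RNAs are read from the strand opposite to another gene and share exonic bases with it, and in flies the paired strands can be cut by Dicer-2 into small interfering RNAs. Hairpin RNAs fold back on themselves and are cut the same way. Some CR genes are the primary transcripts of microRNAs, which Drosha cuts in the nucleus. Pseudogenes are copies of other genes that have lost their reading frame, so that reads from a pseudogene can resemble those of its parent gene.

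How the reads were assigned sets what a CR level means. Exons of 35 members share bases with another gene, 24 of them with a gene on the opposite strand and 12 with one on the same strand (1 with both). Of 49 genes lying wholly within exons of a well-covered opposite-strand gene, 0 had any count, and of 69 such genes on the same strand 0 had any count. Counting in this table thus took no account of strand and dropped the reads that 2 genes share, so that the count of an overlapping member comes from its unshared bases only and from both strands of them. A level of an antisense gene can therefore hold reads of unannotated exons or introns of its partner.

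Members took 1.99%, 0.573% and 0.872% of the counts in the 3 *pros*-depleted samples, against 1.13%, 0.631% and 0.721% in the 3 control samples. Total counts were between 27183747 and 30148395 in *pros*-depleted samples and between 29602875 and 40766059 in control samples, so that a floor of 3 counts was at most 0.110 CPM. This floor reflects counting error alone, because amplification makes many reads of 1 molecule. The groups overlapped in the share on CR genes. Without CR40469 and CR34335, described below, the shares were 0.570%, 0.491% and 0.588% in *pros*-depleted samples and 0.583%, 0.569% and 0.641% in control samples.

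The target and the cell type were checked first. Transcripts of *pros* were at 172, 130 and 182 CPM in *pros*-depleted samples, against 487, 518 and 805 CPM in control samples, a log2 fold change of -2.03 ± 0.24 (SE) that passed the test. Of 9 EE markers tested, 8 were called lower, with the RNAi target *pros* itself among them, and *CCHa1* was not called (edgeR adjusted p = 0.0138). The summed level of the 9 was 6623 to 9947 CPM in *pros*-depleted samples against 78770 to 86994 CPM in control samples. Of 5 progenitor markers 4 were called higher (summed level 460 to 589 CPM in *pros*-depleted and 157 to 237 CPM in control samples), and of 6 enterocyte markers 2 were (5407 to 10608 CPM in *pros*-depleted and 584 to 2250 CPM in control samples). Of 5 visceral muscle markers 1, *up*, was called lower and 0 higher. Of 3 haemocyte, 1 germline and 2 trachea markers tested 0 were called, beside 12.7% of all genes tested. The fat body markers had too few counts for the test. In sorted pools, fewer cells of a type and less RNA per cell cannot be told apart, and the part of these other cell types in the CR values was not tested.

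All 113 members passed the filter on low counts and were tested among 10374 genes with edgeR's quasi-likelihood test, with calls made at a Benjamini-Hochberg adjusted p below 0.01 together with a log2 fold change beyond 0.5 in either direction. Relative to control EEs, 4 members rose and 17 fell in *pros*-depleted EEs, 18.6% of 113, against 12.7% of all genes tested. By direction, 4.73% of all genes were called higher and 7.96% lower, and among the 6866 genes with a mean of at least 5 CPM 14.1% were called, 5.1% higher and 8.97% lower. The values of the groups did not overlap for 37 members, 11 with *pros*-depleted samples higher and 26 with them lower, or 32.7%, against 43.9% of all genes tested (24.8% higher and 19.1% lower). The median log2 fold change was -0.02 over the members, with quartiles of -0.59 and 0.31, and 0.02 over all genes tested.

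The way members were chosen bears on this count. Of the 113, 12 reached a mean of 5 CPM in *pros*-depleted samples only and 12 in control samples only, and these had to differ in level. They include all 4 members called higher and 10 of the 17 called lower. Of the 89 members at 5 CPM or more in both groups, 0 were called higher and 7 lower, or 7.87%, against 11.1% of the 6320 genes at this level in both groups (3.84% higher and 7.29% lower). At the lower edge of the set, CR44922 (5.13 CPM) and CR45269 (5.18 CPM) lay just inside and CR44754 (4.97 CPM) and CR41506 (4.93 CPM) just outside.

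By annotation class, 2 lncRNA genes were called higher and 12 lower of 49, 1 pseudogene higher and 4 lower of 48, and 1 antisense gene higher and 1 lower of 12. Many of these calls are of members that reached 5 CPM in 1 group only. Among the members at this level in both groups, 0 were called higher in any of these classes, and 4 of 33 lncRNA genes (12.1%), 2 of 43 pseudogenes (4.65%) and 1 of 9 antisense genes (11.1%) were called lower, against 11.1% of all genes at this level called in either direction. The median log2 fold change was -0.35 over these 33 lncRNA genes. Over all 48 pseudogenes the median was 0.05. Over the 33 pseudogenes outside the groups of near-equal counts described below it was -0.05, with 15.2% of the 33 called. These 33 still hold related genes, such as the pseudogenes of the *Sdic* cluster. Neither hairpin RNAs nor CR43051 were called. Of 14 members inside the span of another gene without a shared exon, 0 were called higher and 5 lower, and of the 10 of these at 5 CPM or more in both groups 3 were called lower. Of the 35 that share exonic bases 2 were called higher and 4 lower, and of the 28 at this level in both groups 3 were called lower. Differences between classes were not tested.

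**Figure D1:**
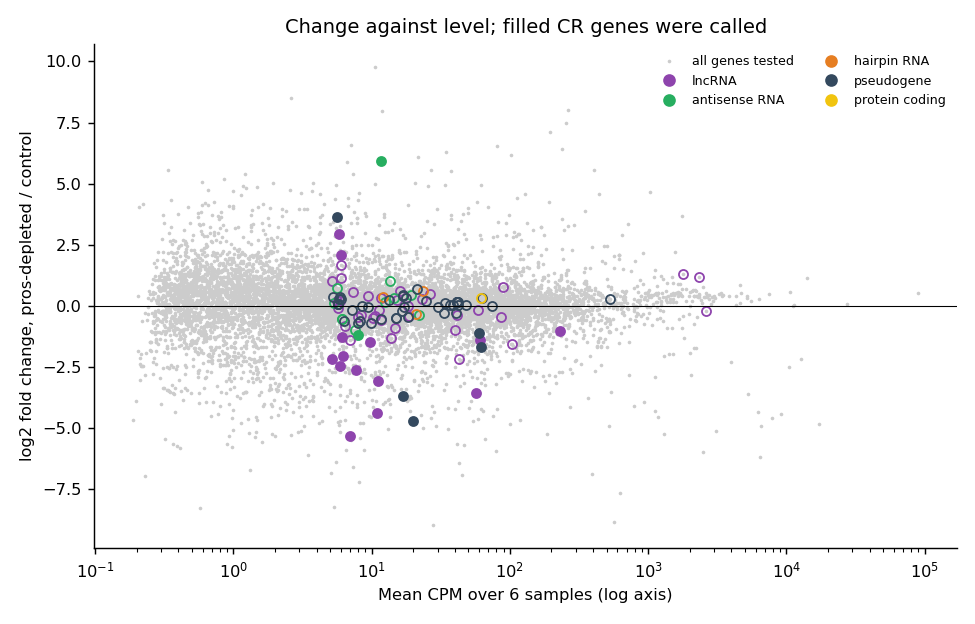
Log2 fold change, *pros*-depleted over control, against mean CPM over the 6 samples (log axis) for all genes tested (grey) and for the 113 CR genes by RefSeq class. Filled circles are the 21 called CR genes, most of which lie below 0 and under 100 CPM, and the CR genes above 1000 CPM are open.

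The lncRNA genes called lower spanned a wide range of levels. CR43256 had 0.531, 0.208 and 0.368 CPM in *pros*-depleted samples, against 8.81, 19.0 and 12.7 CPM in control samples. The gene lies on chr2R:5127249-5129296, partly within the span of *gus* but sharing no exonic base, and its log2 fold change was -5.30 ± 0.43 (SE, n = 3 each; edgeR adjusted p = 0.000161). Every *pros*-depleted value was more than 10 times under the lowest control value, the widest gap among the members called lower. *gus* itself was at 17.1, 20.8 and 17.2 CPM in *pros*-depleted samples, against 26.9, 20.3 and 17.1 CPM in control samples and was not called.

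CR43837 had 0.796, 1.08 and 1.40 CPM in *pros*-depleted samples, against 19.3, 25.8 and 17.7 CPM in control samples. It lies on chrX:6995882-6997799 within the span of *Inx7*, an innexin (gap junction subunit) gene on the same strand, and its log2 fold change was -4.38 ± 0.28 (SE, n = 3 each; edgeR adjusted p = 8.72e-05). Its host *Inx7* was not called and had 27.4, 23.1 and 16.5 CPM in *pros*-depleted samples, against 8.09, 2.40 and 5.93 CPM in control samples, with a log2 fold change of 1.92 and an adjusted p of 0.0118, just outside the threshold. The *pros*-depleted values of the nested gene are near 1 CPM while those of its host are above 16 CPM, and the signs of their log2 fold changes are opposite.

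CR43264 had 6.87, 8.37 and 13.9 CPM in *pros*-depleted samples, against 43.0, 194 and 77.7 CPM in control samples. This short gene, on chrX:5831898-5832215, sits inside the span of CG15765 on the opposite strand, and its log2 fold change was -3.57 ± 0.57 (SE, n = 3 each; edgeR adjusted p = 0.0031). The groups did not overlap, but the control samples differed by 4.51 times among themselves, with replicate 2 the highest. The summed level of 3 haemocyte markers, of which 0 were called, was 3.85 to 7.70 CPM in *pros*-depleted samples and 5.49 to 28.8 CPM in control samples and also highest in control replicate 2, and its part in the value was not tested. Without control replicate 2 the log2 fold change of CR43264 was -2.77 and still called, and the call was lost when any 1 of the *pros*-depleted replicates was left out, at adjusted p of 0.0114 to 0.0167 in edgeR.

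CR44517 had 3.05, 1.98 and 2.69 CPM in *pros*-depleted samples, against 16.1, 23.4 and 19.6 CPM in control samples. It lies on chrX:9140242-9141965, 528 bp from CG7065 on the opposite strand, and its log2 fold change was -3.06 ± 0.24 (SE, n = 3 each; edgeR adjusted p = 0.000134). CR45156 had 2.92, 1.42 and 2.61 CPM in *pros*-depleted samples, against 13.4, 9.36 and 16.3 CPM in control samples. This gene, on chr3L:4345801-4347801, is inside the span of *Cip4*, which encodes a membrane-bending adaptor of the actin machinery, on the opposite strand, and its log2 fold change was -2.62 ± 0.31 (SE, n = 3 each; edgeR adjusted p = 0.000772). For both genes the *pros*-depleted samples were all under 3.1 CPM and the control samples all above 9 CPM. The genes around them, CG7065 and *Cip4*, had log2 fold changes of -0.06 and 0.27 and were not called.

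CR44366 had 1.99, 2.36 and 1.36 CPM in *pros*-depleted samples, against 6.01, 13.9 and 9.75 CPM in control samples. Located on chr2R:13578036-13579626, it is 491 bp from CR44365, another lncRNA gene on the same strand, and its log2 fold change was -2.47 ± 0.39 (SE, n = 3 each; edgeR adjusted p = 0.0031). The call was lost without control replicate 2 or without *pros*-depleted replicate 1 or 3, at adjusted p of 0.0115, 0.0157 and 0.0130 in edgeR. CR44365 was below 2 CPM in every sample and had a log2 fold change of -2.22 that was not called.

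CR31451 had 163, 128 and 196 CPM in *pros*-depleted samples, against 262, 301 and 335 CPM in control samples. It has the highest CPM, not scaled by length, of the called members, lies on chr3R:23983503-23985065, 148 bp from CG13603, and its log2 fold change was -1.01 ± 0.18 (SE, n = 3 each; edgeR adjusted p = 0.00581). The groups do not overlap, with the highest *pros*-depleted value at 196 CPM and the lowest control value at 262 CPM. The call was lost whichever 1 of the 6 samples was left out, at adjusted p of 0.0112 to 0.0244 and log2 fold changes of -1.10 to -0.91. CR44138, a lncRNA gene on chr3R:13376903-13377395 inside the span of CG9813, was close to the threshold: it had 79.7, 36.2 and 55.6 CPM in *pros*-depleted samples, against 205, 148 and 101 CPM in control samples, a log2 fold change of -1.53 ± 0.33 (SE) and an adjusted p of 0.0113.

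The other lncRNA genes called lower were CR44922, CR44618, CR45179, CR44417 and CR45409, with log2 fold changes of -2.17, -2.02, -1.49, -1.39 and -1.27. CR44417, the highest of them, had 30.4, 39.2 and 36.0 CPM in *pros*-depleted samples, against 76.9, 107 and 73.4 CPM in control samples and lies inside the span of *Mapmodulin* on the opposite strand. CR44922, at the lower edge of the set, had 1.26, 2.15 and 2.58 CPM in *pros*-depleted samples, against 5.62, 11.4 and 7.81 CPM in control samples. In all of them each *pros*-depleted sample was lower than each control sample. With 1 sample left out, the CR44618 call was lost without *pros*-depleted replicate 1 only, the CR44417 call without that sample, without *pros*-depleted replicate 3 or without control replicate 2, and the calls of CR45409, CR45179 and CR44922 held in 2, 1 and 1 of 6 fits, at log2 fold changes of -1.34 to -1.19, -1.67 to -1.24 and -2.38 to -1.87.

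**Figure D2:**
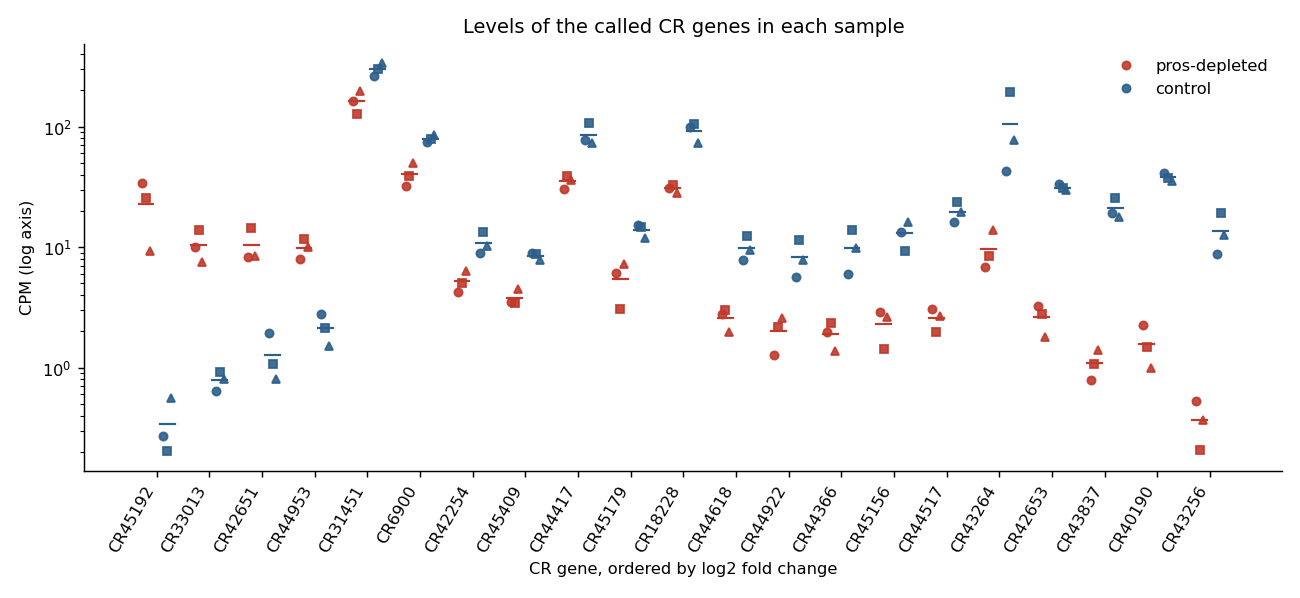
CPM (log axis) of the 21 called CR genes in each sample, with *pros*-depleted samples in red to the left of control samples in blue, the replicates 1, 2 and 3 as circle, square and triangle, and the group mean as a line. Genes are ordered by log2 fold change, from CR45192 (5.95) to CR43256 (-5.30), and within each gene the groups do not overlap.

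Of the lncRNA genes, 2 were called higher. CR42651 had 8.29, 14.4 and 8.50 CPM in *pros*-depleted samples, against 1.94, 1.08 and 0.803 CPM in control samples. This gene contains *mir-10*, a microRNA gene of the Antennapedia Hox complex, lies on chr3R:6808796-6816379, and its log2 fold change was 2.93 ± 0.42 (SE, n = 3 each; edgeR adjusted p = 0.00199). CR44953 had 7.96, 11.6 and 10.04 CPM in *pros*-depleted samples, against 2.80, 2.13 and 1.52 CPM in control samples. It lies on chr3R:29755190-29759040, 662 bp from *yata*, which was not called (log2 fold change 0.15), and its log2 fold change was 2.09 ± 0.30 (SE, n = 3 each; edgeR adjusted p = 0.00202). Both genes were above 7 CPM in each *pros*-depleted sample and below 3 CPM in each control sample. Both calls were lost without control replicate 2, at adjusted p of 0.0115 for CR42651 (log2 fold change 2.83) and 0.0110 for CR44953 (2.09). In the same samples 4 of 5 progenitor and 2 of 6 enterocyte markers were called higher, as given above, and their part in these values was not tested.

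With CR42651, 5 members contain microRNA genes. The microRNA genes themselves, *mir-10*, *mir-279*, *mir-996*, *ban*, *bft* (mir-263a), *mir-277* and *mir-34*, were at 0 counts in all 6 samples, and being short and inside a host exon they could take no read under this counting. The values below are thus those of the host transcripts outside the hairpins and are no measure of mature microRNA, which a library of polyadenylated RNA does not hold.

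CR31044 had 12.9, 4.06 and 11.1 CPM in *pros*-depleted samples, against 2.16, 1.69 and 4.18 CPM in control samples. The host of *mir-279* and *mir-996*, related microRNAs known for holding back formation of certain sensory neurons, lies on chr3R:29214562-29219667, and its log2 fold change was 1.66 ± 0.46 (SE) with an adjusted p of 0.0325, outside the threshold, while *pros*-depleted replicate 2 overlapped the control samples. CR43334 had 149, 85.7 and 115 CPM in *pros*-depleted samples, against 55.9, 41.6 and 91.9 CPM in control samples. This gene, on chr3L:628435-643900, is the host of *ban* (bantam), a microRNA that promotes growth and represses cell death, and its log2 fold change was 0.76 ± 0.31 (SE) with an adjusted p of 0.106. All but 1 of the *pros*-depleted samples were above every control sample.

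The hosts of *bft* and of *mir-277* with *mir-34*, microRNAs studied in bristle survival and in ageing, had smaller differences. CR43314 had 32.4, 5.17 and 13.0 CPM in *pros*-depleted samples, against 25.1, 15.4 and 19.9 CPM in control samples. Here the spread was widest in *pros*-depleted samples, 6.26 times between the highest and the lowest, and the log2 fold change was -0.40 ± 0.53 (SE) with an adjusted p of 0.624. CR43459 had 5.77, 5.24 and 10.3 CPM in *pros*-depleted samples, against 6.08, 6.96 and 13.6 CPM in control samples. Its log2 fold change was -0.45 ± 0.36 (SE) with an adjusted p of 0.388. Per kb of exon, CR43459 (1.05 CPM per kb), CR31044 (1.18) and CR43314 (1.73) were the 3 lowest levels of the set.

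**Figure D3:**
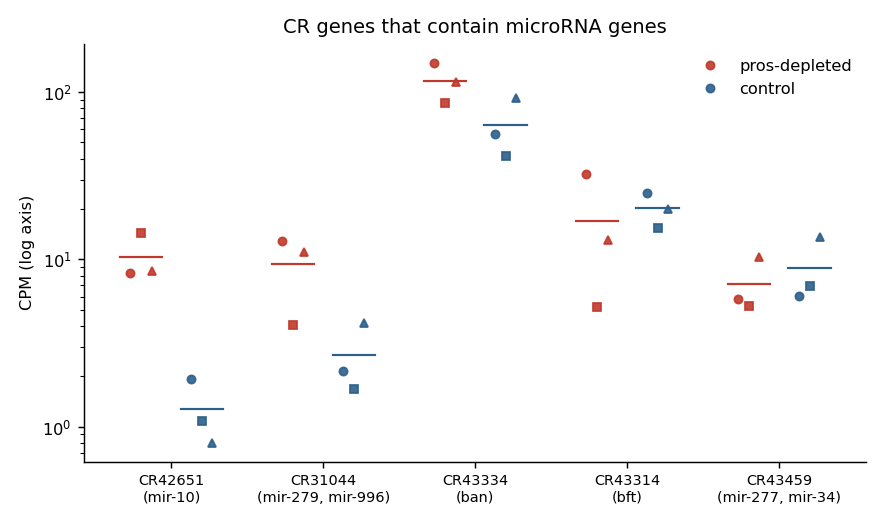
CPM (log axis) of the 5 CR genes that contain microRNA genes, with *pros*-depleted samples in red to the left of control samples in blue, replicates 1, 2 and 3 as circle, square and triangle, and the group mean as a line. The groups are apart for CR42651 (7 to 15 CPM against under 2 CPM) and overlap for the other 4.

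The largest difference in the set was that of an antisense gene. CR45192 had 33.9, 25.4 and 9.34 CPM in *pros*-depleted samples, against 0.270, 0.203 and 0.554 CPM in control samples. CR45192 lies on chr3R:5835478-5836178, opposite CG1208, with which it shares 259 of its 649 exonic bases, and its log2 fold change was 5.95 ± 0.62 (SE, n = 3 each; edgeR adjusted p = 0.000452). The *pros*-depleted samples themselves differed by 3.63 times. CG1208 moved the same way and was called higher, with 18.9, 8.19 and 5.11 CPM in *pros*-depleted samples, against 0.711, 1.15 and 1.19 CPM in control samples and a log2 fold change of 3.29. Since strand was not used, reads of CG1208 outside its annotated exons would be counted on CR45192, and the 2 genes cannot be told apart on the unshared 390 bp.

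CR42254 had 4.28, 5.07 and 6.29 CPM in *pros*-depleted samples, against 8.98, 13.4 and 10.2 CPM in control samples. This is the other called antisense gene, on chr2R:14769599-14771295 opposite *BEAF-32*, which encodes an insulator protein. Its change was small against the rest, since its log2 fold change was -1.18 ± 0.24 (SE, n = 3 each; edgeR adjusted p = 0.00931). The call was lost whichever 1 of the 6 samples was left out, with log2 fold changes of -1.30 to -0.997. *BEAF-32* had a log2 fold change of -0.27 and was not called.

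The 10 antisense genes that were not called had log2 fold changes between -0.98 and 1.02. At the upper end was CR44029, opposite *unc-13*, a gene for synaptic vesicle priming, on chr4:879374-884752. It had 14.9, 24.7 and 16.5 CPM in *pros*-depleted samples, against 8.88, 8.72 and 8.28 CPM in control samples, groups that do not overlap, and an adjusted p of 0.0226. *unc-13* had a log2 fold change of -0.32 and was not called. CR45140, opposite CG17574, also had groups that do not overlap (25.04, 21.2 and 22.6 CPM in *pros*-depleted samples, against 14.5, 15.1 and 17.3 CPM in control samples), with a log2 fold change of 0.44 ± 0.16 (SE) and an adjusted p of 0.0805.

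The 3 hairpin RNA genes, sources of endogenous small interfering RNAs in flies, share 330 to 1019 of their exonic bases with other genes. CR32207 had 37.3, 7.15 and 44.0 CPM in *pros*-depleted samples, against 20.4, 2.87 and 28.6 CPM in control samples. CR32205 had 18.4, 4.41 and 20.2 CPM in *pros*-depleted samples, against 12.1, 2.06 and 15.6 CPM in control samples. These genes lie on chr3L:19475630-19478720 and chr3L:19422838-19424183, and in both groups replicate 2 was more than 4 times under replicates 1 and 3. CR18854 had 16.6, 13.5 and 29.0 CPM in *pros*-depleted samples, against 17.5, 24.0 and 26.0 CPM in control samples. CR18854, on chr2L:9787279-9790745, did not show that pattern. Their log2 fold changes were 0.61, 0.37 and -0.34 with adjusted p of 0.605, 0.729 and 0.397.

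Among pseudogenes, the lowest fold changes belonged to 2 neighbouring genes in the pericentromeric part of chromosome arm 2R. CR40190 had 2.26, 1.49 and 0.993 CPM in *pros*-depleted samples, against 41.3, 37.6 and 35.7 CPM in control samples. CR42653 had 3.25, 2.78 and 1.80 CPM in *pros*-depleted samples, against 33.4, 30.8 and 29.5 CPM in control samples. CR40190 lies on chr2R:1211067-1213666 and CR42653 on chr2R:1207416-1209312, on the same strand, and the nearest gene outside the pair, CG40191, is 50474 bp from CR40190. CR40190 was the lower of the pair after depletion, and its log2 fold change was -4.69 ± 0.31 (SE, n = 3 each; edgeR adjusted p = 0.0001). For CR42653 it was -3.68 ± 0.27 (SE) on the log2 scale (edgeR adjusted p of 0.000119). Control samples differed by at most 1.16 times for either gene, the *pros*-depleted samples were all under 3.3 CPM, and both calls held whichever 1 sample was left out. CG40191 had a log2 fold change of -0.52 and was not called.

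CR33013 had 9.98, 13.9 and 7.54 CPM in *pros*-depleted samples, against 0.638, 0.912 and 0.803 CPM in control samples. It is the only pseudogene called higher, on chr2R:12363320-12366579, 155 bp downstream of CG30043 on the same strand, and its log2 fold change was 3.65 ± 0.36 (SE, n = 3 each; edgeR adjusted p = 0.00034). CG30043 had 16.9, 16.3 and 10.6 CPM in *pros*-depleted samples, against 1.10, 0.642 and 1.58 CPM in control samples and a log2 fold change of 3.61, also called higher. The levels of both were below 2 CPM in every control sample and above 7 CPM in every *pros*-depleted sample. With no strand and 155 bp between them, transcripts that run past the end of CG30043 would be counted on CR33013, and this was not tested.

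The other pseudogenes called lower were CR18228 and CR6900. CR18228 had 30.7, 33.0 and 28.3 CPM in *pros*-depleted samples, against 98.7, 106 and 72.4 CPM in control samples. Lying on chr3R:8260706-8261898, it shares 13 bp with *mtg* on the opposite strand, which was not called, and its log2 fold change was -1.69 ± 0.22 (SE, n = 3 each; edgeR adjusted p = 0.00113). CR6900 had 31.9, 38.5 and 50.1 CPM in *pros*-depleted samples, against 75.1, 78.3 and 84.7 CPM in control samples. Lying on chrX:18785805-18786210, it shares 69 bp with CG6961, and its log2 fold change was -1.10 ± 0.19 (SE, n = 3 each; edgeR adjusted p = 0.00494). The CR18228 call held whichever 1 sample was left out, and the CR6900 call held only without *pros*-depleted replicate 3.

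Many pseudogenes are repeats, and their rows are not independent. CR43211 to CR43216, 6 copies of 1188 exonic bp in tandem on X, had counts within 2.61% of each other in every sample, and CR45495, CR45497 and CR45498 had identical counts. CR42722 with CR42723, CR32010 with CR32011, CR18217 with the protein-coding CG4098 and CR34262 with CG7458 also had counts within 10% in all samples. In all, 15 members were in such groups, whose reads appear to be counted once at every copy, and taking 1 member per group left 104 members, of which 4 were called higher and 17 lower. CR43211 had 40.6, 52.9 and 41.5 CPM in *pros*-depleted samples, against 37.8, 33.5 and 42.2 CPM in control samples, and none of the repeated genes was called. The pseudogenes of the *Sdic* dynein gene cluster, CR33487, CR33491, CR33496 and CR33498, each 369 bp long, had log2 fold changes of -0.46, -0.51, -0.47 and -0.55, and were lower in *pros*-depleted replicates 1 and 2 than in replicate 3.

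Pseudogenes together took 0.181%, 0.152% and 0.188% of counts in *pros*-depleted samples, against 0.159%, 0.147% and 0.184% in control samples, and the groups overlap. The highest CPM was that of CR43482, on chr3L:9386112-9386463, with 789, 303 and 734 CPM in *pros*-depleted samples, against 361, 342 and 640.4 CPM in control samples and an adjusted p of 0.579. It shares 1 bp with CR43483, which in turn shares 49 bp with *Hsp27*. *Hsp27* had 969, 376 and 977 CPM in *pros*-depleted samples, against 456, 443 and 888 CPM in control samples, and was not called. It was above CR43482 in every sample, and its part in the CR43482 values was not tested. CR45470 had 66.9, 95.9 and 65.4 CPM in *pros*-depleted samples, against 82.0, 77.5 and 57.3 CPM in control samples. CR41454 had 48.6, 57.6 and 45.1 CPM in *pros*-depleted samples, against 51.6, 47.0 and 38.7 CPM in control samples. CR41597 had 38.8, 49.96 and 45.5 CPM in *pros*-depleted samples, against 41.2, 37.7 and 41.7 CPM in control samples. These 3 with CR43211 were the smallest differences among the 28 members with the highest means. Their log2 fold changes were -0.02, 0.04, 0.05 and 0.15, each with an SE of 0.18 to 0.26. CR45458, with groups that do not overlap (67.7, 68.4 and 82.0 CPM in *pros*-depleted samples, against 56.0, 45.8 and 60.2 CPM in control samples), had a log2 fold change of 0.31 ± 0.17 (SE) and an adjusted p of 0.213.

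Mean levels of members ran between 5.13 and 2623 CPM, and 3 lncRNA genes, CR42862, CR40469 and CR34335, held 49.4% to 84.1% of all counts on members. CR42862 had 2550.1, 2347 and 2730.2 CPM in *pros*-depleted samples, against 2717, 2497 and 2895 CPM in control samples. The gene, on chr3L:224106-230964, was steady across all samples, at a log2 fold change of -0.20 ± 0.15 (SE) and an adjusted p of 0.365. It shares 246 of its 5485 exonic bases with CG33229 on the same strand, which was called lower, with 32.5, 29.2 and 24.8 CPM in *pros*-depleted samples, against 73.2, 84.8 and 80.2 CPM in control samples and a log2 fold change of -1.57. The difference between the 2 fold changes was not tested.

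CR40469 had 7772, 536 and 1712 CPM in *pros*-depleted samples, against 3110.3, 430.0 and 489.6 CPM in control samples. CR34335 had 6381, 280.2 and 1130.2 CPM in *pros*-depleted samples, against 2386, 189.5 and 309.6 CPM in control samples. CR40469 lies on chrX:122493-122706 and CR34335 on chrX:3545862-3546110 inside the span of CG32791. They are 214 and 249 bp long and had the highest levels of the set per kb of exon, 10942 and 7146 CPM per kb, followed by CR43482 at 1501 and CR42862 at 478. In both groups replicate 1 was more than 4 times above the other replicates, and of 6866 genes with a mean of at least 5 CPM these 2 were the only ones with that pattern. The level of CR34335 was 0.441 to 0.821 times that of CR40469 across the 6 samples, and they lie far apart on X. Near-equal counts were searched for within 100 kb only, and whether these 2 genes share sequence was not tested. Their log2 fold changes, 1.18 ± 1.02 (SE) and 1.30 ± 1.18 (SE), had adjusted p of 0.426 and 0.453. Without *pros*-depleted replicate 1 they were -0.39 and -0.59, so their direction in the unpaired fit hangs on that sample. Within each replicate number, the *pros*-depleted value was the higher for both genes. A fit with a replicate block gave 1.04 and 1.17, at adjusted p of 0.0426 and 0.0218 in edgeR, outside the threshold. Whether the numbers pair the samples is not stated.

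The opposite pattern, with replicate 2 more than 4 times under replicates 1 and 3 in both groups, was found in 10 of 6866 genes. Of these, 3 were members, the hairpin genes CR32205 and CR32207 and the pseudogene CR10102. CR10102 had 38.3, 2.60 and 41.0 CPM in *pros*-depleted samples, against 12.8, 2.70 and 29.9 CPM in control samples. The others were CG12519 and 6 ribosomal RNA genes or pseudogenes. The log2 fold change of CR10102 was 0.68 ± 0.95 (SE) with an adjusted p of 0.637. The replicate numbers are not stated to mark a shared day or batch.

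**Figure D4:**
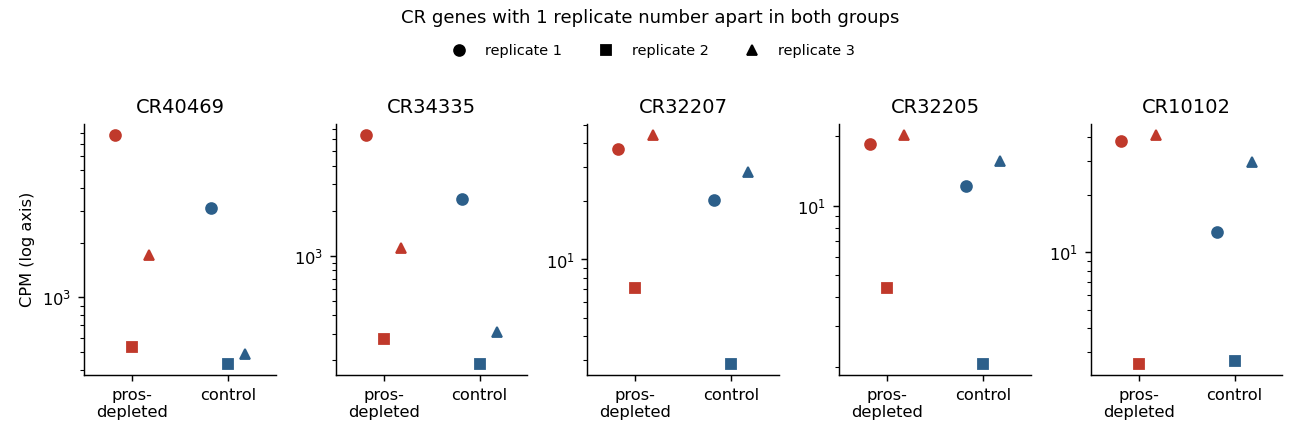
CPM (log axis, own scale per panel) of 5 CR genes in each sample, with *pros*-depleted samples in red to the left of control samples in blue. Replicate 1 (circle) stands above the others in both groups for CR40469 and CR34335, and replicate 2 (square) stands below them for CR32207, CR32205 and CR10102.

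Of the remaining members with high means, CR45018, a lncRNA gene on chrX:13304005-13308004 that shares 1433 bp with *IP3K2*, had 96.2, 43.2 and 91.0 CPM in *pros*-depleted samples, against 94.0, 87.4 and 105 CPM in control samples and an adjusted p of 0.239. CR43051, the entry annotated as protein coding, hosts a small nucleolar RNA gene and had 89.6, 72.6 and 51.2 CPM in *pros*-depleted samples, against 51.4, 58.6 and 46.5 CPM in control samples, with a log2 fold change of 0.35 ± 0.25 (SE). CR44888, inside the span of *Gmap*, had 20.0, 3.12 and 28.0 CPM in *pros*-depleted samples, against 81.7, 27.5 and 96.6 CPM in control samples. The groups overlap, and with a log2 fold change of -2.18 ± 0.70 (SE) and an adjusted p of 0.0531 it was not called. *Gmap*, a Golgi protein gene, was called lower at a log2 fold change of -1.30.

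To see how CR genes compare with the genes beside them, each was paired with another gene. This was the gene that shares most of its exonic bases, else the smallest gene around it, else the nearest gene that is not a member. Such a neighbour was tested for 98 members (89 different genes). The log2 fold changes of member and neighbour had the same sign in 63 pairs, or 64.3%, against 57.2% of 8089 other genes. For those other genes the nearest gene could be any gene, so the rule was not quite the same. The effect of this difference on the shares was not tested. Spearman's rho was 0.32 over the 98 pairs and 0.24 over the other genes, as a description across genes, which are not independent replicates and here share libraries and sometimes reads. By position, nearest-gene pairs had the same sign in 43 of 58 (74.1%, against 58.2% of other genes), though tandem copies share neighbours and the 58 pairs hold 49 different ones. Pairs that share exonic bases had the same sign in 14 of 27 (51.9%, against 54.7%) and nested genes in 6 of 13 (46.2%, against 60.8%).

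Calls on both sides of a pair were counted for members only, without a comparison with other genes. CR45192 with CG1208 and CR33013 with CG30043, both higher, were the only pairs in which both genes were called, and no pair was called in opposite directions. Of the 17 members called lower, 16 had a tested neighbour. Of these neighbours 0 were called by edgeR, beside 12.7% of all genes tested, and whether 0 of 16 differs from that share was not tested. The log2 fold change was negative for 8 of the 16 and positive for 8. In the other direction, 14 members with a called neighbour were not called themselves, among them CR42862 beside CG33229 and CR42785, a pseudogene inside the span of *Tsp42Ea* (log2 fold change 1.24, called higher) with 34.2, 35.5 and 46.1 CPM in *pros*-depleted samples, against 51.9, 38.1 and 39.8 CPM in control samples.

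**Figure D5:**
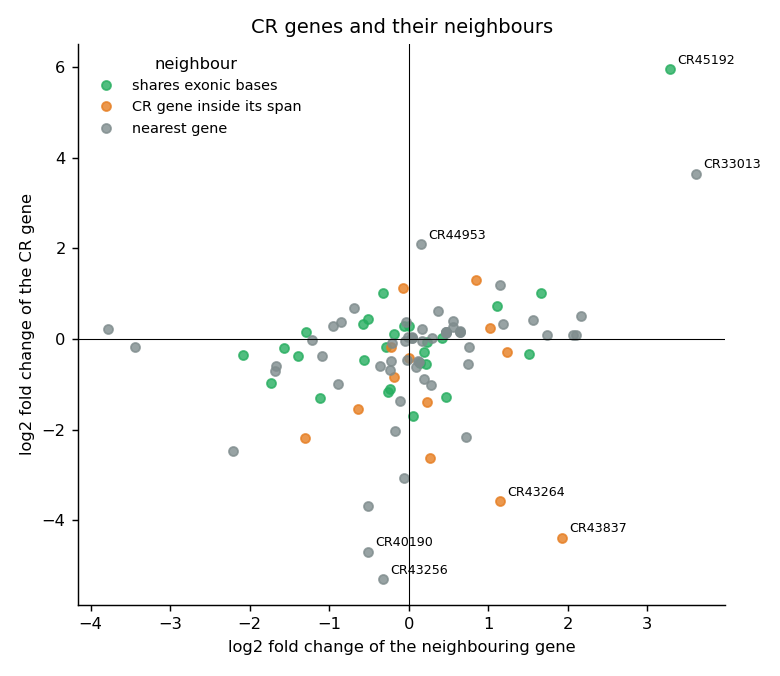
Log2 fold change of each CR gene, *pros*-depleted over control, against that of its neighbouring gene for 98 pairs, coloured by how the pair lies. CR45192 and CR33013 are at the upper right with their neighbours. Among the lowest CR genes, CR43256, CR40190 and CR43837 have neighbours that were not called, with that of CR40190 at -0.52 and that of CR43837 above 0.

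The calls were not equally firm. Leaving out each sample in turn, 9 of the 21 called members were called in all 6 fits: CR45192 and CR33013, higher, and CR18228, CR40190, CR42653, CR43256, CR43837, CR44517 and CR45156, lower. CR31451 and CR42254 were called in 0 of the 6. The number called lower was 12, 9 and 13 without control replicate 1, 2 and 3, and 7, 12 and 10 without *pros*-depleted replicate 1, 2 and 3. The number called higher was 2 without control replicate 2 and 4 otherwise. Over all genes, 413 to 596 were called lower and 188 to 317 higher in these fits, against 826 and 491 in the main fit. The number of calls thus fell over all genes as well. All 21 members were also called by DESeq2, which called 7 higher and 19 lower. The labels give only a number for each sample of a group, and the methods call the 3 of each genotype independent replicates. The edgeR p values rest on the spread between these samples, with that of each gene drawn towards the spread of all genes tested.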

How the data were processed

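The authors aligned single-end reads of 50 bp to BDGP6, and the raw counts they deposited, 1 table for all genes, came from featureCounts 1.6.3. Strand and multiple-position settings are not given in the sources used here and were read from the counts. Values in CPM are counts over column totals. The main test was edgeR 4.0.16 under R 4.3.3 with TMM scaling, on genes that reached 10 counts in 3 or more samples, with DESeq2 1.42.0 as alternative, and the code was tested on simulated data. SE is the absolute log2 fold change over the square root of F. Gene classes are from RefSeq, joined in pandas 2.3.3. Named genes are the 10 highest means, up to 8 highest and 8 lowest changes among called members whose groups do not overlap, the 4 smallest changes among the 28 highest means, the genes at the edge of the level threshold, neighbours and *pros*, and others were named after their values were seen. Members, lists and rules were chosen with earlier results of these data known. Other scalings, filters, thresholds, memberships and leaving out each sample were tried. 1 member per copy group and non-coding classes alone were added after seeing the data. A planned search of promoters for motifs was not run. Samples were grouped by their titles. Whether the replicate numbers pair the samples is not stated, and the main test did not pair them.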

Additional observations from a re-analysis of the deposited data

How the results depend on the processing

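In the main fit 4 CR genes were called higher and 17 lower (491 and 826 of all genes). They were 7 and 19 with DESeq2 (976 and 1267 of all genes) and 7 and 20 at an adjusted p under 0.05 (1184 and 1519 of all genes). With library size as the only scaling they were 5 and 14 (596 and 677 of all genes), and the median of all genes rose by 0.12 on the log2 scale. With other memberships the CR genes called higher and lower were 9 and 27 at a mean CPM of 2 or more (208 genes), 1 and 9 at 10 or more (71 genes), and 7 and 22 at 5 CPM or more in at least 1 group (129 genes). The share of all genes called at these levels was not computed. Members without exon overlap gave 2 and 13 and took 0.432% of control counts, and lncRNA genes alone gave 2 and 12 with a median log2 fold change of -0.40, which was -0.34 with antisense and hairpin genes added. The cause of these differences was not tested, apart from the number of genes in each membership. Leaving out 1 sample gave 188 to 317 genes called higher and 413 to 596 lower over all genes, 2 to 4 members called higher and 7 to 13 lower. In the same fits the log2 fold change of CR40469 ranged between -0.39 and 2.71, CR34335 between -0.59 and 3.22, CR45470 between -0.30 and 0.14, CR41454 between -0.13 and 0.18, CR41597 between -0.10 and 0.17 and CR43211 between -0.052 and 0.27. These 6 thus had no stable direction in these unpaired fits, and CR45470 was at 0.074 with library size as the only scaling. Deviations of same-numbered samples correlated at -0.16, 0.20 and 0.10, and those of differently numbered samples at -0.29 to 0.23. These values cannot decide whether the numbers pair the samples, because deviations from a mean of 3 samples are tied to each other. A fit with a replicate block called 4 members higher and 16 lower (346 and 643 of all genes). In it, 4 of the 17 lower calls were lost (CR31451, CR45179, CR42254 and CR45409) and 3 gained (CR44138, CR44888 and CR45432). With 3 samples a group, the median SE over members was 0.27, and the smallest called log2 fold change was that of CR31451 at -1.01, while some larger ones, such as CR44138 at -1.53, were not called.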

Other observations

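Well-known non-coding genes outside the CR names were given the same test. Of 19 listed, 16 had enough counts, 2 were called higher and 0 lower, against 12.7% of all genes called in either direction, so the share called is near that of all genes. Both called genes are hosts of small nucleolar RNAs, which guide modification of ribosomal RNA. *Uhg1* had 74.8, 114 and 90.3 CPM in *pros*-depleted samples, against 42.0, 38.7 and 37.2 CPM in control samples, with a log2 fold change of 1.14 ± 0.22 (SE, n = 3 each; edgeR adjusted p = 0.0078). *Uhg7* had 4.41, 6.63 and 6.40 CPM in *pros*-depleted samples, against 1.45, 1.76 and 1.41 CPM in control samples, with a log2 fold change of 1.81 ± 0.29 (SE, n = 3 each; edgeR adjusted p = 0.00303). The summed level of the 7 Uhg genes listed was 233 to 299 CPM in *pros*-depleted samples and 168 to 189 CPM in control samples, without overlap. The groups did not overlap for 43.9% of all single genes tested, and the sum includes *Uhg1*. Apart from *Uhg1* and *Uhg7*, the Uhg genes were not called, with log2 fold changes between 0.13 (*Uhg5*) and 0.72 (*Uhg3*). *Hsromega*, a nuclear RNA of the heat shock response, had a log2 fold change of -0.04 ± 0.19 (SE) and was not called.

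The *roX* RNAs belong to the male dosage compensation complex, and the flies here were female. *roX1* had 10.3, 14.4 and 5.19 CPM in *pros*-depleted samples, against 11.1, 6.96 and 13.4 CPM in control samples, with a log2 fold change of -0.14 ± 0.42 (SE), and was not called. *roX2* was below 1.3 CPM in every sample, with 0.896, 0.590 and 1.25 CPM in *pros*-depleted samples and 0.221, 0.135 and 0.222 CPM in control samples, and was not called (edgeR adjusted p = 0.0115). Of 6 genes of dosage compensation and 11 of the RNA exosome, which degrades nuclear non-coding RNA, 0 were called by edgeR in either direction, beside 12.7% of all genes tested. Nearest the threshold was the exosome gene *Rrp4*, with a log2 fold change of 0.73 ± 0.16 (SE, n = 3 each; edgeR adjusted p = 0.0115). The summed level of the exosome genes was 116 to 137 CPM in *pros*-depleted samples and 85.0 to 102 CPM in control samples, without overlap. Single genes had groups without overlap in 43.9% of all genes tested. For dosage compensation the sums overlapped, at 68.5 to 75.1 CPM in *pros*-depleted and 73.8 to 92.7 CPM in control samples. CR41506, just under the level threshold, is annotated on Y and was at 4.63 CPM on average in *pros*-depleted and 5.22 CPM in control samples, although the flies were female.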
